A study of Mus musculus with 8 samples.

Results

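Slow muscle fibres and muscle under mechanical load use a set of genes known mainly from striated muscle. Of the 49452 genes in the deposited table, 10 such genes were followed here by symbol through 8 RNA-Seq libraries of mouse brown adipose tissue (BAT). Of them 6 encode parts of the slow contractile apparatus (Myh7, Myl2, Myl3, Tnnc1, Tnni1 and Tnnt1) and 4 encode muscle stress proteins (Csrp3, Ankrd1, Ankrd2 and Ankrd23). Myh7, Ankrd2 and Csrp3 were chosen by their higher FPKM values at 4 °C than at 22 °C, so the levels at 22 °C and 4 °C are given for all 10 as a description and without a test. That choice was made on the cold experiment, and tests are given for the diet libraries. All members were chosen with earlier results of these data known, so the diet tests are not shown to be free of selection. The fast myosin heavy chain gene Myh4 served as the comparison.

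The animals were male C57BL/6 mice without a transgene or deletion. In the cold experiment the mice were 10 to 12 weeks old and were either kept at 22 °C or moved to 4 °C for 24 h, of which the last 4 h were without food. Whether the 22 °C mice were fasted as well is not stated in the sources used here. In the diet experiment the mice were 32 weeks old and had eaten a control diet (CD, which the labels call normal chow) or a high-fat diet (HFD) for 28 weeks. Each of the 4 groups held 2 libraries made from whole tissue. Values are given in the library order that the labels number as 4 and 7 for 22 °C, 2 and 11 for 4 °C, 6 and 8 for CD, and 2 and 6 for HFD. All are in FPKM, fragments scaled to transcript length and to the number of mapped fragments, which allows levels of genes of different length to be set side by side.

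A sarcomere shortens when myosin heavy chains of the thick filament pull on actin, and the troponin complex on the thin filament makes that pull depend on calcium. Slow and fast fibres build the same machine from different genes: Myh7 in place of Myh4, Myl2 and Myl3 as myosin light chains, Tnnc1, Tnni1 and Tnnt1 as the calcium-binding, inhibitory and tropomyosin-binding subunits of troponin. Most of the slow genes are also used by the heart. Csrp3 (muscle LIM protein) sits at the Z-disc, and Ankrd1, Ankrd2 and Ankrd23 are the muscle ankyrin repeat proteins, which bind titin and are known to be induced by stretch or injury of muscle.

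Skeletal muscle markers were present in every library and differed between the groups: all 9 markers measured (Ckm, Des, Mybpc1, Pygm, Ryr1, Cacna1s, Myot, Neb and Ttn) had both 4 °C libraries above both 22 °C libraries (as did 37.9% of the genes tested) and both HFD libraries below both CD libraries (5.80%), and none was at 0 in any library. In limma 2 of the 9 (Myot and Neb) passed in the cold (1.44% of the genes tested) and none passed with diet (0.0684%), where all 9 had an unadjusted p under 0.05 (14.4%). Of these, Myot, Neb and Ttn also belong to the Z-disc and titin genes described further on. Their summed level was 193 and 57.4 FPKM at 22 °C, compared with 1563 and 701 at 4 °C, and 221 and 556 with CD against 73.6 and 26.5 with HFD. The part of these markers in the values below was not tested, and in bulk tissue a smaller number of cells of a type cannot be told apart from less RNA per cell. Of 10 heart muscle markers 5 (Myh6, Nppa, Nppb, Myl7 and Mybpc3) stayed at or below 0.0511 FPKM in all 8 libraries. The highest of the rest was Myl4, an atrial light chain gene, at 4.65 FPKM in HFD 2. Of 8 brown adipocyte markers 7 were higher and 1 lower in both 4 °C libraries (37.9% and 20.6% of the genes tested). With HFD 2 were higher and 2 lower in both libraries (39.9% and 5.80%). In limma 3 of them (Dio2, Ppargc1a and Elovl3) passed in the cold (1.44%) and none with diet (0.0684%). Their summed level was 6081.2 and 6244.8 FPKM at 22 °C, compared with 16260.1 and 13984.5 at 4 °C, and their part was not tested. The libraries also fell into 2 types by the satellite transcript Gm10800, which was at 447 to 15726 FPKM in 4 of them (22 °C 4, 4 °C 11, CD 8 and HFD 2) and at 0.0998 to 4.13 FPKM in the rest, with 1 of each type in every group. Genes of the X chromosome were listed at 0 in both 22 °C libraries and in CD 6, whereas all 10 genes described here are autosomal.

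Myh7 (ENSMUSG00000053093, GRCm38 chromosome 14, 54970688 to 54994634, minus strand) encodes the slow myosin heavy chain. Its level was 0.578 and 0.0787 FPKM at 22 °C, compared with 19.3 and 18.9 at 4 °C, and 0.990 and 36.6 with CD against 0.509 and 0.0458 with HFD. The highest value of all was in 1 CD library, CD 8, and the other CD library was below both 4 °C libraries. Mean levels were 19.1 ± 0.289 FPKM at 4 °C against 0.328 ± 0.353 at 22 °C (± SD, n = 2), 58.1-fold apart. The fast Myh4 (ENSMUSG00000057003, chromosome 11, 67238029 to 67260446) was at 38.0 and 9.42 FPKM at 22 °C, compared with 270 and 160 at 4 °C, and 28.8 and 195 with CD against 15.2 and 0.710 with HFD. Its means were thus 9.07-fold apart in the cold experiment, and Myh4 was above Myh7 in every library. Myh7 lies across from the antisense genes Mhrt, Gm29015 and Gm31251 and the coding gene Gm17428, and holds Mir208b on its own strand. The libraries were directional, but whether the FPKM values use strand is not stated, so reads of these genes may be mixed, and reads shared with near-identical paralogs (Myh6 for Myh7, Myh1 and Myh2 for Myh4) make both levels uncertain.

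The slow myosin light chain genes had a similar pattern. Myl2, the regulatory light chain, was at 5.56 and 0.769 FPKM at 22 °C, compared with 184 and 87.8 at 4 °C, and 9.03 and 98.8 with CD against 1.79 and 0.260 with HFD. Myl3, the essential light chain, was at 1.73 and 0.559 FPKM at 22 °C, compared with 44.3 and 23.6 at 4 °C, and 3.24 and 30.1 with CD against 0.698 and 0.0610 with HFD. For both genes CD 6 lay above the 22 °C libraries, CD 8 lay between the 4 °C libraries, and the HFD libraries lay below both CD libraries.

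The 3 slow troponin genes gave the same picture. Tnnc1, the calcium-binding subunit, was at 2.08 and 0.422 FPKM at 22 °C, compared with 49.1 and 44.0 at 4 °C, and 3.72 and 45.7 with CD against 1.04 and 0.0777 with HFD. Tnni1, the inhibitory subunit, was at 1.10 and 0.218 FPKM at 22 °C, compared with 56.6 and 34.8 at 4 °C, and 4.03 and 36.2 with CD against 0.569 and 0.144 with HFD. Tnnt1, which ties the complex to tropomyosin, was at 2.91 and 0.544 FPKM at 22 °C, compared with 59.6 and 47.3 at 4 °C, and 4.58 and 54.4 with CD against 1.49 and 0.331 with HFD. In each case CD 8 again lay between the 4 °C libraries and CD 6 above the 22 °C libraries. The subunits did not keep a single ratio: Tnni1 was at 37.7% and 40.1% of Tnnt1 at 22 °C, compared with 94.8% and 73.5% at 4 °C, and 88.1% and 66.6% with CD against 38.2% and 43.6% with HFD. Over the 8 libraries the 6 slow genes had pairwise Pearson correlations of 0.958 to 0.999 on log2(FPKM + 1), libraries that share tissue, muscle level and group. Myl2, Myl3 and Tnnc1 overlap Ccdc63, Pth1r and Nisch, respectively, on the opposite strand.

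**Figure D1:**
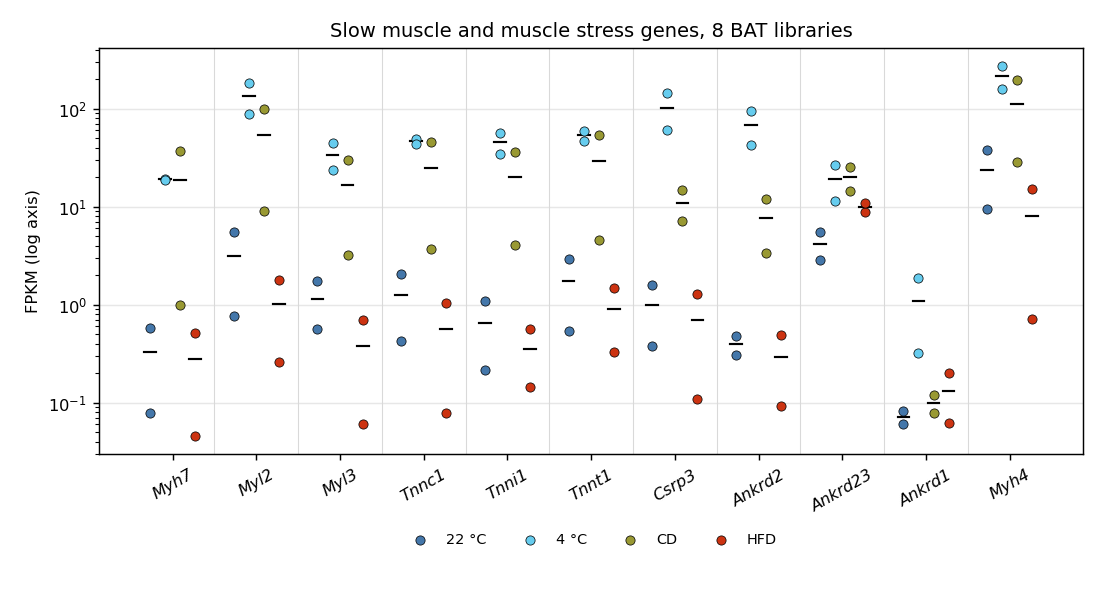
FPKM (log axis) of the 10 slow muscle and muscle stress genes and of Myh4 in each of 8 BAT libraries, 1 point per library and a bar at each group mean (n = 2). The slow genes, Csrp3 and Ankrd2 have both 4 °C points above both 22 °C points, the 2 CD points of Myh7 lie at 0.990 and 36.6 FPKM, and Ankrd1 stays under 2 FPKM.

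Csrp3 (ENSMUSG00000030470, chromosome 7, 48830398 to 48848033, minus strand) was at 1.60 and 0.380 FPKM at 22 °C, compared with 143 and 60.5 at 4 °C, and 7.16 and 14.8 with CD against 1.27 and 0.108 with HFD. Ankrd2 (ENSMUSG00000025172, chromosome 19, 42036038 to 42045110, plus strand) was at 0.480 and 0.307 FPKM at 22 °C, compared with 93.8 and 42.9 at 4 °C, and 3.40 and 11.9 with CD against 0.494 and 0.0930 with HFD. Unlike for the slow genes, both 4 °C libraries were above both CD libraries for Csrp3 and Ankrd2. The 4 °C mean was 103-fold the 22 °C mean for Csrp3 and 174-fold for Ankrd2, of the 10 genes the widest gaps. Both genes were picked for this rise, so that rank is a description only. Between the 2 genes the ratio of Ankrd2 to Csrp3 stayed within 0.299 to 0.858 in all 8 libraries.

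The other muscle ankyrin repeat genes behaved differently. Ankrd23 was at 5.45 and 2.84 FPKM at 22 °C, compared with 26.8 and 11.4 at 4 °C, and 14.4 and 25.6 with CD against 8.92 and 10.9 with HFD. It was thus well measured where the slow genes were near their lowest, as in HFD 6, where Myh7 was at 0.0458 FPKM. Ankrd23 overlaps Gm42417 on the same strand, so the 2 genes' reads may be mixed. Ankrd1 was at 0.0602 and 0.0822 FPKM at 22 °C, compared with 1.86 and 0.320 at 4 °C, and 0.12 and 0.0791 with CD against 0.203 and 0.0614 with HFD. Its 4 °C libraries were 5.83-fold apart, the widest spread of the 10 genes in that group, and only these libraries brought it past the low-value filter in the cold experiment. With the 6 slow genes, Pearson r over the 8 libraries was 0.874 to 0.958 for Csrp3, 0.896 to 0.965 for Ankrd2, 0.734 to 0.775 for Ankrd23 and 0.496 to 0.620 for Ankrd1, beside 0.879 to 0.948 for Myh4.

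The promoters of the genes picked for the cold and of Myh4 are shown because Myh7, Csrp3 and Ankrd2 stood higher relative to Myh4 at 4 °C, as given further on. Each is the 250 bases before the RefSeq start (GRCm38.p6), 5′ to 3′ on the gene's strand. Capitals mark CANNTG (the E-box bound by myogenic factors), CATTCC on either strand (the site of TEAD factors), and matches to the MEF2 and CArG (serum response factor) motifs.
Myh7 (chr14:54994627-54994876, minus strand): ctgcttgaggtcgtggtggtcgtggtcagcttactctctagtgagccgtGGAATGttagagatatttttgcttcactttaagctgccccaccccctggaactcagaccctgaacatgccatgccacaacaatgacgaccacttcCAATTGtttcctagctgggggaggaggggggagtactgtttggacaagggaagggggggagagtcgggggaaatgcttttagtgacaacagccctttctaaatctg
Csrp3 (chr7:48848052-48848301, minus strand): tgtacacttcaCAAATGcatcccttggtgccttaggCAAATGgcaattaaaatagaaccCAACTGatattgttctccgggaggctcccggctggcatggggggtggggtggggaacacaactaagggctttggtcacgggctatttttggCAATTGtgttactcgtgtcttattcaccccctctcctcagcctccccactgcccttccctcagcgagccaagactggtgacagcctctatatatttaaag
Ankrd2 (chr19:42035777-42036026, plus strand): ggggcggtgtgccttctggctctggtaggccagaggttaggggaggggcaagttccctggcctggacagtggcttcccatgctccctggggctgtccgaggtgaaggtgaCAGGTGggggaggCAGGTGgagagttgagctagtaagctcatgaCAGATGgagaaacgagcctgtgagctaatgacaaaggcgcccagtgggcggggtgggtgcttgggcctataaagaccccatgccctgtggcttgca
Myh4 (chr11:67237562-67237811, plus strand): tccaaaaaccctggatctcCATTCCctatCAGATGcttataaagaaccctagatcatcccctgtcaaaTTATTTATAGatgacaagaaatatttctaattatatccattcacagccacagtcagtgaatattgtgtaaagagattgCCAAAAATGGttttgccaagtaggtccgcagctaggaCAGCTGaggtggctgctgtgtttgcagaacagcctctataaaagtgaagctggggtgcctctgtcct
All 10 genes were found in RefSeq. The RefSeq starts of Myl2, Myl3 and Tnni1 lie 7762, 21817 and 19987 bases from the gene starts deposited with the FPKM values. The windows of these genes may thus not be those of the transcripts measured. CANNTG occurred in 9 of the 10 windows and in 66.2% of the 32851 promoters of that length, and CATTCC in 4 of 10 and in 12.6%. A CArG match occurred in 1 of 10 (Myl3) and in 1.47% of all promoters, and a MEF2 match in none of the 10 and in 2.92%. Matches were sought on both strands, and motifs may overlap. In Myh7 the CATTCC match begins 201 bases and the CANNTG match 106 bases before the start. The Csrp3 and Ankrd2 windows hold CANNTG and none of the other motifs marked, whereas the Myh4 window holds all 4. Such matches are letters in a window and do not show that a factor binds.

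In the cold experiment, the 4 °C libraries both exceeded the 22 °C libraries for all 10 genes, as they did for 37.9% of the 17477 genes tested, and fell below them for none of the 10 (20.6% of genes). That count includes Myh7, Ankrd2 and Csrp3, picked for this rise, and Ankrd1, which passed the filter only through its 4 °C libraries. It is therefore a description and not a test. Differences of means on the log2(FPKM + 1) scale, which understates the change of low genes, were 3.94 for Myh7, 5.23 for Myl2, 4.02 for Myl3, 4.51 for Tnnc1, 4.83 for Tnni1 and 4.46 for Tnnt1. They were 5.63 for Csrp3, 5.54 for Ankrd2, 1.90 for Ankrd23 and 0.86 for Ankrd1. The median was 4.48 over the 6 slow genes and 3.72 over the 4 stress genes, and 0.07 over all genes tested. Both member medians include genes picked on these same libraries. Among the stress genes the picked Csrp3 and Ankrd2 stood at 5.63 and 5.54, and the others at 1.90 and 0.86. Without 22 °C library 4 the median over all 10 was 5.10 and without 22 °C library 7 it was 3.87, and all 10 remained higher either way. Without either 4 °C library, or with a filter of 1 FPKM, Ankrd1 was not tested and the other 9 were higher. Within libraries rich in the satellite transcript the median difference was 3.71 and within the others 5.22, from 1 library a group.

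**Figure D2:**
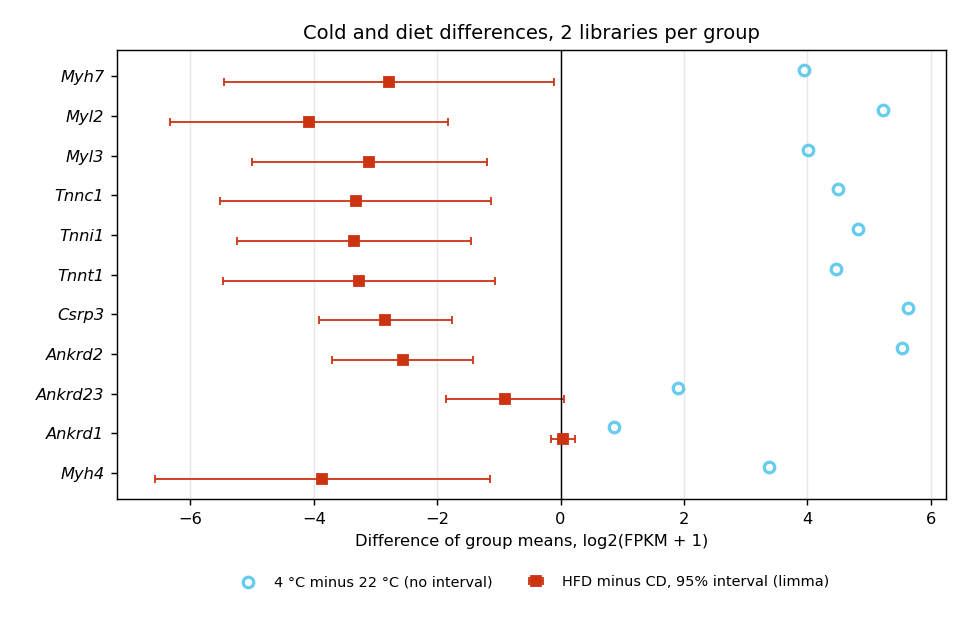
Differences of group means on the log2(FPKM + 1) scale for the 10 genes and Myh4, with circles for 4 °C minus 22 °C (no interval, since this contrast picked members) and squares for HFD minus CD with the 95% interval of the limma fit. Cold differences run from 0.86 (Ankrd1) to 5.63 (Csrp3), and diet differences from −4.08 (Myl2) to 0.04 (Ankrd1).

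Each gene was also set against Myh4 within its own library. This percentage moves with Myh4 itself: relative to Myh4, 94.7% of the genes tested were lower in both 4 °C libraries and 89.8% were higher in both HFD libraries. Myh7 was at 1.52% and 0.836% of Myh4 at 22 °C and at 7.14% and 11.8% at 4 °C. It was at 3.44% and 18.8% under CD and at 3.35% and 6.44% under HFD, where the groups overlapped. Csrp3 was at 4.22% and 4.03% of Myh4 at 22 °C, compared with 53.0% and 37.8% at 4 °C, and 24.9% and 7.61% with CD against 8.39% and 15.3% with HFD. Ankrd2 was at 1.26% and 3.26% at 22 °C, compared with 34.7% and 26.8% at 4 °C, and 11.8% and 6.10% with CD against 3.25% and 13.1% with HFD. All 6 slow genes, Csrp3 and Ankrd2 had both 4 °C libraries above both 22 °C libraries relative to Myh4, 8 of 10 genes against 0.801% of the genes tested, a count that includes the 3 genes picked on these libraries. Ankrd23 stood lower in both (14.4% and 30.1% against 9.92% and 7.11%) and Ankrd1 overlapped. Between the diets Myl3 and Tnnc1 stood lower relative to Myh4 in both HFD libraries (0.182% of genes), 6 genes overlapped, and Ankrd1 and Ankrd23 stood higher in both. For Ankrd23 the values were 50.1% and 13.2% with CD against 58.7% and 1532% with HFD, and for Ankrd1 0.418% and 0.0406% against 1.34% and 8.64%. Of 14 other fast muscle genes none stood higher and 1 stood lower relative to Myh4 in both 4 °C libraries, and 2 stood higher and none lower in both HFD libraries. On the log2(FPKM + 1) scale, where low values are pulled together, Myh7 minus Myh4 was −4.63 and −3.27 at 22 °C and −3.74 and −3.02 at 4 °C. These overlapped, with a difference of 0.57 that became 2.33 with a pseudocount of 0.1, and −0.11 without 22 °C library 4.

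**Figure D3:**
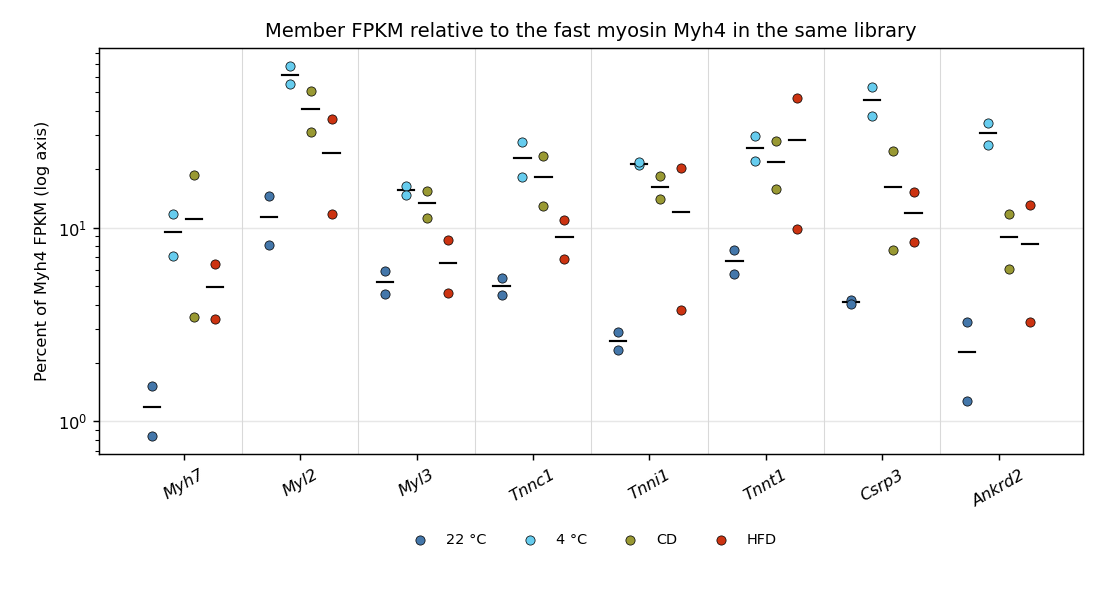
FPKM of the 6 slow genes, Csrp3 and Ankrd2 as a percentage of Myh4 FPKM in the same library (log axis), 1 point per library and a bar at each group mean (n = 2). All 8 genes have both 4 °C points above both 22 °C points (0.801% of the genes tested). Of them Myh7, Csrp3 and Ankrd2 were picked on the cold libraries. CD and HFD points overlap for all but Myl3 and Tnnc1, which are lower in both HFD libraries (0.182%). Ankrd1 and Ankrd23 are not drawn. Relative to Myh4, Ankrd23 was lower in both 4 °C libraries (94.7% of the genes tested) and Ankrd1 overlapped. With diet both genes were higher relative to Myh4 in both HFD libraries (89.8%). Myh4 itself was at 0.710 FPKM in HFD 6, its lowest level in the 8 libraries.

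The same held when each slow gene was set against its own fast counterpart. Myl2 was at 11.6% and 6.43% of the fast regulatory light chain gene Mylpf at 22 °C, compared with 36.9% and 57.4% at 4 °C, and 13% and 96.4% with CD against 12.4% and 13.6% with HFD. Tnnt1 was at 2.54% and 2.52% of Tnnt3 at 22 °C, compared with 6.71% and 12.1% at 4 °C, and 3.88% and 17.7% with CD against 3.99% and 10.7% with HFD. In all 6 pairs (also Myh7 with Myh4, Myl3 with Myl1, Tnnc1 with Tnnc2 and Tnni1 with Tnni2) both 4 °C ratios lay above both 22 °C ratios, with means 3.72-fold to 8.03-fold apart. Myh7 was picked on these cold libraries. The pair counts for cold and diet are descriptions, since no share over all genes is given for such ratios. In all 6 pairs the highest ratio of the 8 libraries was that of CD 8. Between the diets 4 pairs overlapped and 2 were lower in both HFD libraries, Tnnc1 to Tnnc2 and Myl3 to Myl1. Myl1 was still at 25.5 FPKM in HFD 6, where Myh4 was at 0.710.

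The diet comparison asks whether these genes differed after 28 weeks of HFD. All slow genes, Csrp3, Ankrd2 and Ankrd23 were lower in both HFD libraries than in both CD libraries, 9 of the 10 genes against 5.80% of the 17543 genes tested, and none was higher in both (39.9% of genes). None of the 10 passed the threshold in limma (Benjamini-Hochberg adjusted p under 0.05 and a log2 difference of at least 1), where 0.0684% of genes (12) did, 0.0171% with lower and 0.0513% with higher values under HFD, and 8 of 10 had an unadjusted p under 0.05, as did 14.4% of all genes tested (2532). All 10 genes passed the filter on low values. Myh7, Myl3, Tnnc1 and Ankrd2 were below 0.1 FPKM in HFD 6, so they passed that filter only with their CD libraries, where they were higher. The 9 genes counted as lower include them. For Csrp3 the difference was −2.84 (SE 0.46, 95% interval −3.92 to −1.76, limma adjusted p 0.118), the lowest adjusted p of the 10. For Ankrd2 it was −2.56 (SE 0.49, −3.70 to −1.42, limma adjusted p 0.141). Both HFD libraries lay below both CD libraries for these genes, but the spread of 11.8-fold between the HFD libraries of Csrp3 was nearly as wide as the 15.9-fold gap between the group means.

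Of the 6 slow genes 5 had a larger difference than Csrp3, and all 6 had a wider error. Myl2 differed by −4.08 (SE 0.97, limma adjusted p 0.163), Tnni1 by −3.35 (SE 0.81, 0.167), Tnnc1 by −3.32 (SE 0.94, 0.195), Tnnt1 by −3.27 (SE 0.94, 0.20) and Myl3 by −3.10 (SE 0.82, 0.181). Without CD 8 the differences were −2.42 for Myl2, −1.91 for Tnni1, −1.67 for Tnnc1, −1.62 for Tnnt1 and −1.66 for Myl3. Without CD 6 they were −5.74, −4.79, −4.98, −4.93 and −4.53 in the same order. Myh7 differed by −2.78 (SE 1.14, 95% interval −5.46 to −0.11, limma adjusted p 0.331), with CD libraries that were 37.0-fold apart, and by −0.66 without CD 8 and −4.90 without CD 6. Ankrd23 differed by −0.90 (SE 0.41, 95% interval −1.86 to 0.05, limma adjusted p 0.369) and Ankrd1 by 0.04 (SE 0.08, 95% interval −0.15 to 0.23, limma adjusted p 0.862), the latter running from −0.28 to 0.16 over the alternatives tried. The median over the 10 was −2.97 and over all genes 0.18. Myh4 itself differed by −3.86 (SE 1.16, limma adjusted p 0.215). The 4 macrophage markers were all higher in both HFD libraries (39.9% of the genes tested) and none passed (limma adjusted p 0.151 to 0.160; all 4 had an unadjusted p under 0.05), with summed levels of 18.7 and 9.06 FPKM for CD and 65.5 and 55.6 for HFD, and their part in the values was not tested. Of 7 smooth muscle markers 6 were higher in both 4 °C libraries and 5 in both HFD libraries, beside 37.9% and 39.9% of the genes tested, and none passed in limma. An unadjusted p under 0.05 was found for 6 of them in the cold (24.5% of the genes tested) and for 3 with diet (14.4%). Their summed level was 32.4 and 27.0 FPKM at 22 °C, compared with 77.4 and 61.7 at 4 °C, and 12.7 and 19.5 with CD against 40.7 and 32.9 with HFD, and their part was not tested either. Myh7 minus Myh4 on the log2(FPKM + 1) scale was −3.91 and −2.38 under CD and −3.42 and −0.71 under HFD, a difference of 1.08 (exact permutation test, two-sided, p = 0.667, where 0.33 is the smallest p that 2 against 2 libraries can give). That difference was 0.0069 with a pseudocount of 0.1, −0.28 without HFD 6 and 2.43 without HFD 2.

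The diet calls changed with the covariate and with the libraries used. With library type as a covariate 8 of the 10 passed, all but Ankrd1 and Ankrd23, among 745 genes (limma), and without any 1 of the 4 libraries 7 or 8 passed, among 98 to 726 genes against 12 with all 4, with the lone library of a group assumed to vary as the others do. The covariate was read from Gm10800 in these same libraries. Fitted beside 2 group means, it left little of the 4 libraries to measure spread. Within satellite-rich libraries the median difference was −4.33 and within the others −2.04, from 1 library a group. Library labels begin with 1 of 2 prefixes, of unstated meaning, and CD 6 carries that of the 22 °C and 4 °C libraries whereas CD 8 carries that of both HFD libraries. Without CD 6, so with 1 prefix in the comparison, the median difference was −4.79, and without CD 8, so with prefix and diet not to be told apart, it was −1.67.

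The CD libraries differed from each other by 1.52-fold to 37.0-fold over the 10 genes, with a median of 9.12-fold against medians of 1.99 at 4 °C, 4.57 at 22 °C and 6.09 under HFD. CD 8 held the slow genes, but not Csrp3 and Ankrd2, at the level of the 4 °C libraries or above it. The ratio of Csrp3 to Myh7 was 2.77 and 4.83 at 22 °C, compared with 7.42 and 3.21 at 4 °C, and 7.24 and 0.405 with CD against 2.50 and 2.37 with HFD. That of Ankrd2 to Myh7 was 0.830 and 3.90 at 22 °C, compared with 4.87 and 2.28 at 4 °C, and 3.44 and 0.325 with CD against 0.97 and 2.03 with HFD. CD 8 was the lowest of the 8 libraries for both ratios. By group means the 6 slow genes, Csrp3 and Ankrd2 all had the order 4 °C, CD, 22 °C, HFD. The 4 °C and CD libraries overlapped for the slow genes and not for Csrp3 and Ankrd2, and the 22 °C and HFD libraries overlapped for all 8. For Ankrd23 the order was CD, 4 °C, HFD, 22 °C, and for Ankrd1 4 °C, HFD, CD, 22 °C.

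**Figure D4:**
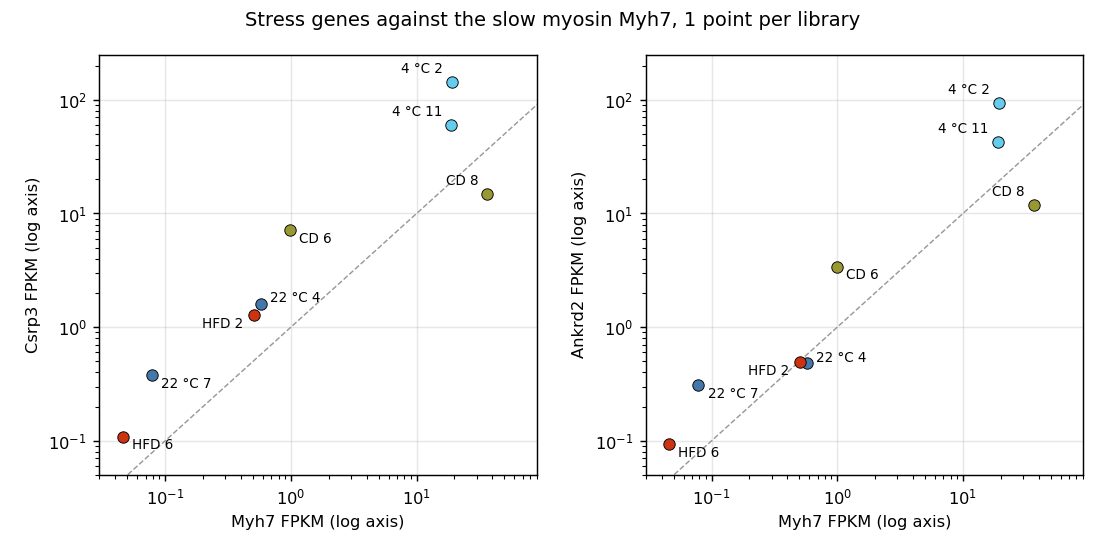
FPKM of Csrp3 (left) and Ankrd2 (right) against Myh7 FPKM, 1 point per library, both axes logarithmic, with a dashed line where both genes are equal. CD 8 has the highest Myh7 (36.6 FPKM) and lies below the line in both panels, whereas the 4 °C libraries lie above it.

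Other genes of the same structures give the setting. Of 15 Z-disc and titin-associated genes all were higher in both 4 °C libraries (37.9% of all genes tested) and 8 passed the threshold in the cold (among them Ldb3, Myot, Actn2, Flnc and Hspb7), with limma adjusted p of 0.0208 to 0.0499. Of all genes tested 1.44% passed in the cold in either direction and 1.22% with higher values. Flnc, the muscle filamin, was at 1.31 and 0.671 FPKM at 22 °C, compared with 68.2 and 24.8 at 4 °C, and 1.40 and 6.66 with CD against 1.12 and 0.591 with HFD (cold log2 difference 4.43, SE 0.49, limma adjusted p 0.0319). Hspb7, a small heat shock protein of muscle, rose by 4.57 (SE 0.39, limma adjusted p 0.0208). Relative to Myh4, 8 of the 15 stood higher in both 4 °C libraries (0.801% of all genes tested), among them Xirp1, an actin-binding protein of intercalated discs and muscle repair, at 0.567% and 1.28% at 22 °C, compared with 14.4% and 5.74% at 4 °C, and 1.05% and 1.10% with CD against 0.836% and 3.54% with HFD. Of 9 further genes listed as slow muscle genes 7 were higher in both 4 °C libraries and 2 passed, Tpm3 (a tropomyosin, difference 2.26, SE 0.22, limma adjusted p 0.0246) and Myoz2 (calsarcin, difference 3.98, SE 0.33, limma adjusted p 0.0207). Tpm3 was still at 15.2 FPKM in 22 °C 7 and 32.3 in HFD 6, where Myh7 was at 0.0787 and 0.0458. Of these 9, 1 (Myoz2) stood higher and 6 stood lower relative to Myh4 in both 4 °C libraries, and 1 (Myoz2) stood lower and 7 stood higher relative to it in both HFD libraries, beside 94.7% of all genes tested lower in the cold and 89.8% higher with HFD. Of 15 fast genes, Myh4 included, all were higher in both 4 °C libraries with log2 differences of 2.33 to 3.69, and none passed (limma adjusted p 0.0602 to 0.109), although all 15 had an unadjusted p under 0.05, as did 24.5% of all genes tested. Under HFD, 13 of the 15 Z-disc genes and 14 of the 15 fast genes were lower in both libraries (5.80% of all genes tested), and none passed in limma, where 13 and 14, respectively, had an unadjusted p under 0.05 (14.4% of all genes tested). The Z-disc gene Mustn1 was instead higher in both HFD libraries (39.9% of all genes tested). Of the further slow genes 8 were tested with diet, and 3 (Myl6b, Myoz2 and Mb) were lower in both HFD libraries (5.80%). None of the 8 passed, with differences from −3.04 (Mb) to −0.008 (Atp2a2) and a median of −0.35. Tpm3 differed by −0.19 and Casq2 by −0.05. Of the regulators and developmental genes, 3 of 9 measured passed the low-value filter in the cold, and Myf6, a myogenic factor of mature fibres, rose (0.370 and 0.0909 FPKM at 22 °C, 8.21 and 4.02 at 4 °C, limma adjusted p 0.0442). The embryonic and perinatal myosins Myh3 and Myh8 stayed at or below 0.112 FPKM in all 8 libraries.

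The autosomal genes outside these lists whose pattern over the 8 libraries was most like that of Myh7, of 10883 compared, were Pcp4l1 (Pearson r 0.984), Klhl41 (0.964), Mylk2 (0.962), Lmod3 (0.961) and Gm27232 (0.961). Those most like Csrp3 were Abra (0.993), Trim54 (0.992), 2310002L09Rik (0.992), Lrrc2 (0.989) and Fbxo40 (0.988). Pcp4l1 followed CD 8 as Myh7 does, at 3.02 FPKM there against 2.31 and 1.81 at 4 °C. Abra, which encodes an actin-binding protein of muscle, was at 4.22 FPKM in CD 8 against 21.1 and 8.89 at 4 °C. These likenesses are descriptions over 8 libraries that share groups and muscle level.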

How the data were processed

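BAT RNA was depleted of rRNA and made into directional libraries. Reads were mapped to GRCm38 with TopHat2 2.0.10 and quantified with Cufflinks (2.2.1 in the submitters' processing notes). The authors deposited 1 table of FPKM values for 49452 genes and 8 libraries, used here as given. Tests by the authors ran on read counts in DESeq2, and those counts are not used here.

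The members and gene lists were chosen with earlier results of these data known. The scale was log2(FPKM + 1), fitted by limma 3.58.1 (R 4.3.3; eBayes with trend, two-sided) per experiment without covariates, over autosomal genes that reached 0.1 FPKM in 2 or more of 4 libraries, with Benjamini-Hochberg adjustment over all genes tested. The fit was tested on simulated data with equal, independent noise for every gene. Those data do not hold the wide, shared spread of the genes described here. The labels do not say that the libraries of a group come from separate mice, so p-values measure the spread between these libraries, which correlated at r 0.968 to 0.982 within groups.

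Low FPKM values were whole multiples of 1 fragment (99.3% to 99.8% within 0.1 fragment). A fragment on 2000 bases was worth 0.00437 to 0.00605 FPKM, and in HFD 6 a member rested on as few as 4.00 estimated fragments.

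Genes named are the members, Myh4, genes of the lists, and the 5 genes outside them with a mean of at least 1 FPKM and the highest Pearson r with Myh7, and likewise with Csrp3. Acta1 and Mymk, also listed, were not analysed here. Other pseudocounts, filters, scalings, covariates and fits without 1 library were tried. Exact tests used SciPy 1.17.1.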

Additional observations from a re-analysis of the deposited data

How the results depend on the processing

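Under HFD none of the 10 genes passed with a pseudocount of 0.1, no filter, median centring, quantile normalization, rescaling without rRNA and Ucp1, all 8 libraries in 1 fit, or X, Y and mitochondrial genes kept. With a filter of 1 FPKM, which leaves Myh7 and Ankrd1 untested, 1 gene passed (Csrp3, of 24 genes in all), with library type as a covariate 8 passed (of 745), and without 1 library 7 to 8 passed (of 98 to 726). The last rest on the spread of the 1 group that keeps 2 libraries, so their adjusted p-values say little of replicate spread. The median diet difference was −4.79 to −1.67 without 1 library. In the cold the median over the 10 genes was 5.62 with a pseudocount of 0.1 and 3.87 to 5.10 without 1 library, and Myh7 minus Myh4 was 2.33 with that pseudocount and 1.72 when rescaled without rRNA and Ucp1. The causes of these shifts were not tested. Pairing by replicate number was not possible, because the 22 °C and 4 °C groups share no replicate number and CD and HFD share only number 6. Library type, read from Gm10800 and not from a replicate number, entered only as the covariate above. The adjusted p-values of that covariate fit also say little of replicate spread, since little is left to measure it. The members had a median of 19.9 estimated fragments in HFD 6, and each group had n = 2.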
